A study of Rattus norvegicus with 10 samples.

Results

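Heat shock proteins are molecular chaperones, which hold unfolded proteins and help them to fold, and many are induced by the transcription factor HSF1 when proteins are damaged. HSP70 proteins bind exposed hydrophobic stretches, HSP110 proteins exchange the nucleotide of HSP70, HSP90 proteins mature signalling clients, small heat shock proteins hold unfolded proteins without ATP, and the chaperonin of the mitochondrial matrix folds imported proteins. In the stomach, inducible HSP70 is known as a marker of mucosal stress. The 6 genes described here were taken from the 32623 features of the deposited tables by identifier and chromosome. They are Hspa1 (ENSRNOG00000050647), the stress-inducible HSP70, Hspb1 (ENSRNOG00000023546), a small heat shock protein, and Hsph1 (ENSRNOG00000000902), of the HSP110 family. With them come Hsp90aa1 (ENSRNOG00000007219), the inducible cytosolic HSP90, Hspa8 (ENSRNOG00000034066), the constitutive cytosolic HSP70, and Hspd1 (ENSRNOG00000014525), the mitochondrial chaperonin. All 6 passed the filter on low counts.

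RNA of gastric mucosa from Sprague Dawley rats was sequenced in 10 libraries, 2 in each of 5 groups. One group received an intraperitoneal dose of 40 mg/kg honokiol, a plant biphenol, with indomethacin following after 30 min at 48 mg/kg. The others received indomethacin alone at 48 mg/kg, diclofenac at 75 mg/kg or aspirin at 400 mg/kg, all by mouth, and the labels of the controls name no treatment. All 3 drugs are non-steroidal anti-inflammatory drugs, which inhibit cyclooxygenases. The general protocol puts sampling at 4 h, but the honokiol libraries carry a time label of 0.5 h, the length of the lead of honokiol. The labels name epithelial cells as the cell type, which could not be checked, because the reference used here pairs no identifiers with symbols. No vehicle or honokiol-only group was analysed here.

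Library totals ran from 23892226 to 44977459 counts. The labels do not state separate animals, so p-values rest on the spread between the 2 libraries of each group, pooled over all 5 groups. Control replicate 1, indomethacin replicate 1 and both honokiol libraries held 2733 to 4438 counts on 7 features of the Y chromosome, and the other 6 libraries at most 47. The 2 controls, at 3582 and 1 Y counts, and the 2 indomethacin libraries, at 4438 and 2, were thus not repeats of 1 RNA sample, while for the other groups these counts do not tell. Y reads are thus uneven between the groups, and values within libraries of 1 kind are given beside the results. For aspirin and diclofenac the control of the same kind is always control replicate 2, and for honokiol plus indomethacin control replicate 1. A model term for Y reads is estimated from the control and indomethacin libraries alone. In these groups Y reads and replicate number coincide and cannot be told apart. In bulk tissue, fewer cells of a type and less RNA per cell cannot be told apart.

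The promoters that could be matched are shown because they hold letters of the element that HSF1 binds, arrays of the unit GAA in alternating orientation. RefSeq promoters on the GRCr8 assembly were matched by symbol for 4 of the 6 genes, and Hspa1 and Hsp90aa1 are named only. Each line gives the 250 bases before the start, 5′ to 3′ on the strand of the gene, with matches to GAANNTTC or TTCNNGAA in capitals. These lie at chr12:26432302-26432551 on the minus strand (Hspb1), chr12:10427118-10427367 on the plus strand (Hsph1), chr8:50080264-50080513 on the plus strand (Hspa8) and chr9:64084038-64084287 on the minus strand (Hspd1). The counted row of Hsph1 lies on the minus strand, unlike its RefSeq promoter, while the strands of the other matched genes are the same in both. The reason was not tested.
Hspb1: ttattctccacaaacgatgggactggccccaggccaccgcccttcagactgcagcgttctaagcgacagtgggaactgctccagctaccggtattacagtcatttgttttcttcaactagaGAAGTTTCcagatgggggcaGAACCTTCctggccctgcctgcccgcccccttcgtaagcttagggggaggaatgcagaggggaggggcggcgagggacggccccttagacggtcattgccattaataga
Hsph1: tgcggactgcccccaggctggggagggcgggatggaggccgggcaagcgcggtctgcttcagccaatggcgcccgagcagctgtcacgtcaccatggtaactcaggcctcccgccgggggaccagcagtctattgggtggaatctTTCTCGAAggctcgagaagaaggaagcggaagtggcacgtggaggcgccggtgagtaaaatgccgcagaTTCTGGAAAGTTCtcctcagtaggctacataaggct
Hspa8: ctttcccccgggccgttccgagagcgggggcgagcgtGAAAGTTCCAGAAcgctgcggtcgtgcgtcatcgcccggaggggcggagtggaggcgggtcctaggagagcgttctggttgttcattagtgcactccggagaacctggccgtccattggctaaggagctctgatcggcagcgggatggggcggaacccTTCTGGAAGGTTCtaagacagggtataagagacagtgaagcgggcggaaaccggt
Hspd1: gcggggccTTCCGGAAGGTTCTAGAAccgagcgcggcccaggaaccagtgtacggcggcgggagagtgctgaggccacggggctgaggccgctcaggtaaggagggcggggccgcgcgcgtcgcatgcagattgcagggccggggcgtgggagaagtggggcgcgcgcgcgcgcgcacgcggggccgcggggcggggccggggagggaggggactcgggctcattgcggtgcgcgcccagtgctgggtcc

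All 4 promoters held at least 1 pair of units, GAANNTTC or TTCNNGAA, each of which reads the same on both strands, and of 33469 promoters 13.5% held one. An uninterrupted run of 3 units, in which such a pair is followed after NN by another unit in the opposite orientation to its neighbour, was in 0.663% of promoters on either strand. Hspa8 held 2 such runs, at 213 to 201 and at 55 to 43 bases before the start, and Hsph1 held 1, at 36 to 24 bases. Hspd1 had an uninterrupted run of 4 units, 242 to 225 bases before the start, in which 2 runs of 3 overlap; 14 of all promoters, or 0.0418%, held a run of 4. Hspb1 had 2 separate pairs, at 129 to 122 and at 109 to 102 bases. Runs of 3 or 4 units also contain the pairs, and all were counted in each class. A match describes these letters only and is no measured binding site.

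**Figure D1:**
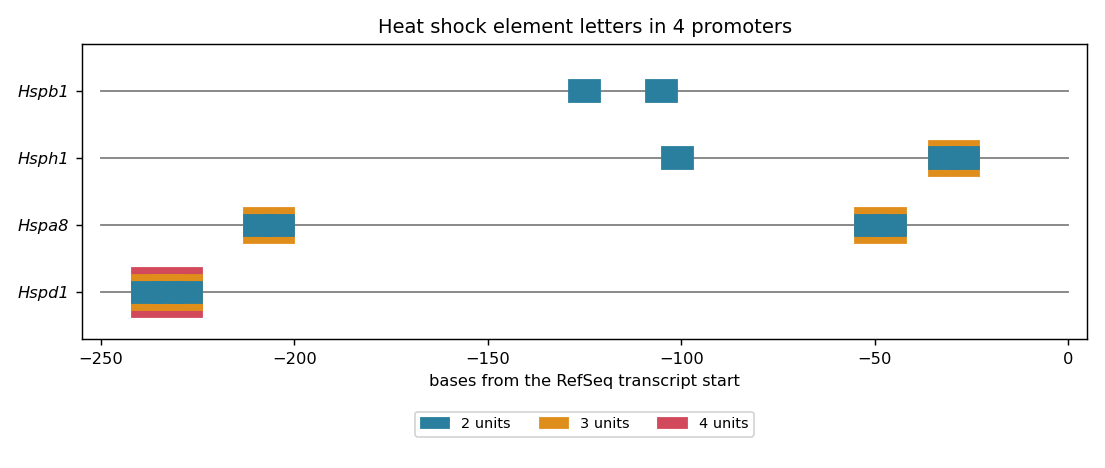
Matches to pairs and longer runs of the heat shock element in the 250 bases before the RefSeq start of 4 genes; the horizontal axis is the distance from the start in bases and bar height and colour mark runs of 2, 3 or 4 units. Hspa8 holds 2 runs of 3 units, Hsph1 1 run of 3 and a further pair, Hspd1 a run of 4, and Hspb1 2 separate pairs.

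Levels of the genes in control mucosa were compared per length, as TMM-scaled CPM (counts relative to the library total after edgeR's scaling) per kb of exon. In the 2 controls Hspa8 stood highest at 206 and 200 per kb, followed by Hsp90aa1 at 62.7 and 61.5 and Hspd1 at 47.0 and 49.4. Hsph1 followed at 4.51 and 6.75, Hspb1 at 3.23 and 6.54 and Hspa1 at 1.43 and 3.28. The first 3 did not overlap with each other or with the rest. Between libraries Hsph1 and Hspb1 overlapped, as did Hspb1 and Hspa1, but within each control library the order of the genes was the same. With diclofenac Hspa1 reached 46.1 and 22.02 per kb and stood above Hsph1, at 16.4 and 7.73, in both libraries. The same held with aspirin, at 13.3 and 22.9 against 5.80 and 7.09, and with indomethacin, at 12.5 and 19.7 against 6.24 and 7.28. In the honokiol libraries Hspa1 stood at 7.07 and 8.44 against 6.29 and 5.92 for Hsph1. Over all 10 libraries the highest value was 32.3 times the lowest for Hspa1 and 6.84 times for Hspb1, and 2.26 times for Hspa8.

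Hspa1 rose with diclofenac and aspirin. In TMM-scaled CPM it stood at 113 and 54.1 with diclofenac, against 3.51 and 8.05 in control. With aspirin it had 32.7 and 56.2 CPM and with indomethacin 30.6 and 48.3 CPM, against the same controls. Every library of the 3 drugs lay above both controls. The log2 fold change over control was 3.86 ± 0.53 with diclofenac, a 14.5-fold difference, and 2.95 ± 0.51 with aspirin, 7.71-fold (SE, edgeR adjusted p = 0.00563 and 0.0107). With indomethacin it was 2.77 ± 0.51, or 6.84-fold, and just missed the threshold of 0.05 (SE, edgeR adjusted p = 0.0507, 95% interval 1.63 to 3.92). The indomethacin value passed in DESeq2 (adjusted p = 2.7e-09) and in an edgeR model with a term for Y reads (0.0162), and ranged from 2.31 to 3.51 when single libraries were left out, with an edgeR adjusted p from 0.0642 to 0.259. The diclofenac call held without each library in turn, at 3.26 without diclofenac replicate 1 and 4.6 without control replicate 2. The aspirin call was lost without control replicate 1, at 2.50 (edgeR adjusted p = 0.0539), and the value was 3.70 without control replicate 2. Against the control library of the same Y-read state, Hspa1 was 6.72- and 14.1-fold higher in the diclofenac libraries, 4.06- and 6.98-fold in the aspirin libraries and 6- and 8.74-fold in the indomethacin libraries.

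Hspb1, whose protein holds unfolded proteins and protects actin filaments, also rose with diclofenac and aspirin, and by less. It had 19.4 and 11.3 TMM-scaled CPM with diclofenac and 11.9 and 11.98 CPM with aspirin, against 2.84 and 5.74 CPM in control. With indomethacin it had 6.14 and 7.91 CPM, also above both controls. The 2 controls differed from each other by more than the indomethacin libraries did. The log2 fold change was 1.84 ± 0.35 with diclofenac and 1.48 ± 0.35 with aspirin (SE, edgeR adjusted p = 0.0128 and 0.0206), and 0.71 ± 0.34 with indomethacin, which did not pass (SE, edgeR adjusted p = 0.544, 95% interval -0.04 to 1.47). Both calls were lost without single libraries. The diclofenac value was 1.45 without control replicate 1 and 1.43 without diclofenac replicate 1 (edgeR adjusted p = 0.0709 and 0.0528), and 2.46 without control replicate 2. The aspirin value was 1.09 without control replicate 1 and 1.48 without aspirin replicate 1 (edgeR adjusted p = 0.105 and 0.11), and 2.1 without control replicate 2. With a term for Y reads the aspirin call was also lost, at 1.21 (edgeR adjusted p = 0.0567), and with only diclofenac and control libraries in the model the diclofenac value was 1.87 (edgeR adjusted p = 0.0665). Against the control of the same Y-read state Hspb1 was 1.96- and 3.38-fold higher with diclofenac, 2.07- and 2.08-fold with aspirin and 1.38- and 2.16-fold with indomethacin.

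**Figure D2:**
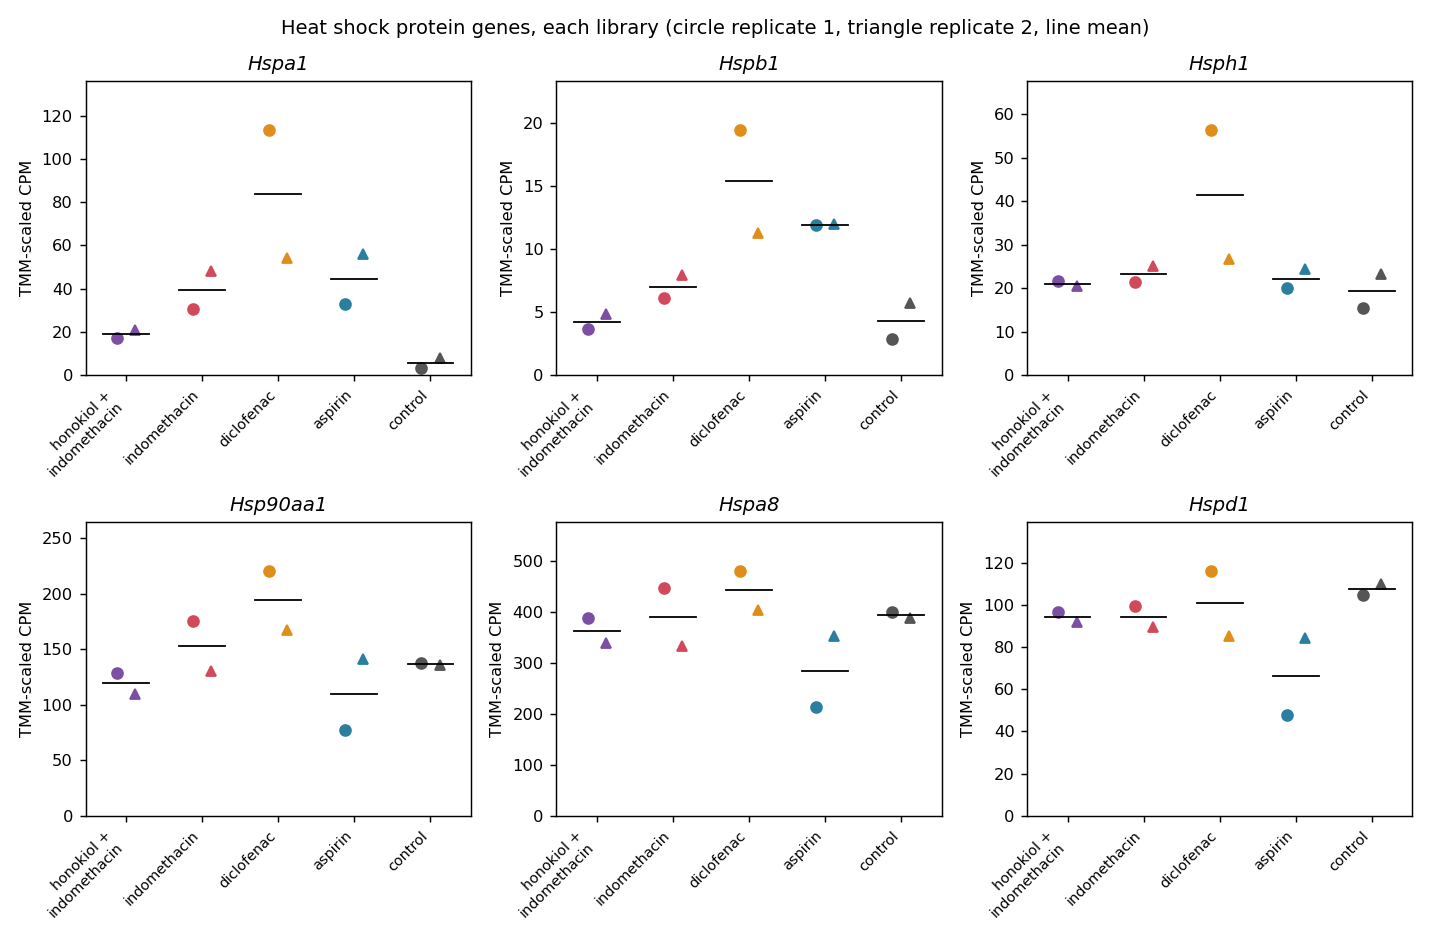
TMM-scaled CPM of the 6 genes in each library, by group, with circles for replicate 1, triangles for replicate 2 and a line at the mean of the 2; each panel has its own vertical axis from 0. Hspa1 lies between 30.6 and 113 in the libraries of the 3 drugs and at 3.51 and 8.05 in control, while Hspa8 stays between 213 and 480 in all libraries.

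Hsph1, the exchange factor of HSP70, stood apart in 1 library. It had 56.3 and 26.6 TMM-scaled CPM with diclofenac, against 15.5 and 23.2 CPM in control. Aspirin gave 19.98 and 24.4 CPM and indomethacin 21.5 and 25.1 CPM, within or near the range of the controls. With diclofenac the log2 fold change was 1.098 ± 0.32 and narrowly missed the threshold (SE, edgeR adjusted p = 0.0589, 95% interval 0.40 to 1.80). It was 0.49 without diclofenac replicate 1 and 1.54 without diclofenac replicate 2 (edgeR adjusted p = 0.428 and 0.0137), so the higher level rested on replicate 1. DESeq2 called it with all libraries (adjusted p = 0.0114). The values with indomethacin and aspirin were 0.27 ± 0.32 and 0.20 ± 0.32 (SE, edgeR adjusted p = 0.842 and 0.68).

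Hsp90aa1 and Hspa8 did not pass in any drug comparison. Hsp90aa1 had 221 and 167 TMM-scaled CPM with diclofenac, 77.7 and 141 CPM with aspirin and 176 and 130 CPM with indomethacin, against 138 and 135 CPM in control. Only the diclofenac libraries lay on 1 side of both controls, and the log2 fold change was 0.51 ± 0.30 there, -0.32 ± 0.30 with aspirin and 0.16 ± 0.30 with indomethacin (SE, edgeR adjusted p = 0.302, 0.456 and 0.9). Hspa8 had 480 and 404 CPM with diclofenac, 213 and 353 CPM with aspirin and 447 and 333 CPM with indomethacin, against 399 and 389 CPM in control. Its log2 fold changes were 0.17 ± 0.30 with diclofenac, -0.48 ± 0.30 with aspirin and -0.01 ± 0.30 with indomethacin (SE, edgeR adjusted p = 0.754, 0.264 and 0.992). The 95% intervals of Hspa8 reached from -1.12 to 0.82 over the 3 drugs, so changes of that size are within the error.

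Hspd1, which folds proteins in the mitochondrial matrix, passed the threshold with no drug. It had 47.8 and 84.5 TMM-scaled CPM with aspirin, against 105 and 110 CPM in control. Both aspirin libraries were below both controls, with replicate 1 the lower. Diclofenac gave 116 and 85.1 CPM, on either side of the controls, and indomethacin 99.5 and 89.3 CPM, below both. The log2 fold change with aspirin was -0.70 ± 0.27 and did not pass (SE, edgeR adjusted p = 0.0903). It was -1.18 without aspirin replicate 2 and -0.35 without aspirin replicate 1 (edgeR adjusted p = 0.0165 and 0.472). With diclofenac and indomethacin it was -0.09 ± 0.27 and -0.19 ± 0.27 (SE, edgeR adjusted p = 0.859 and 0.869).

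**Figure D3:**
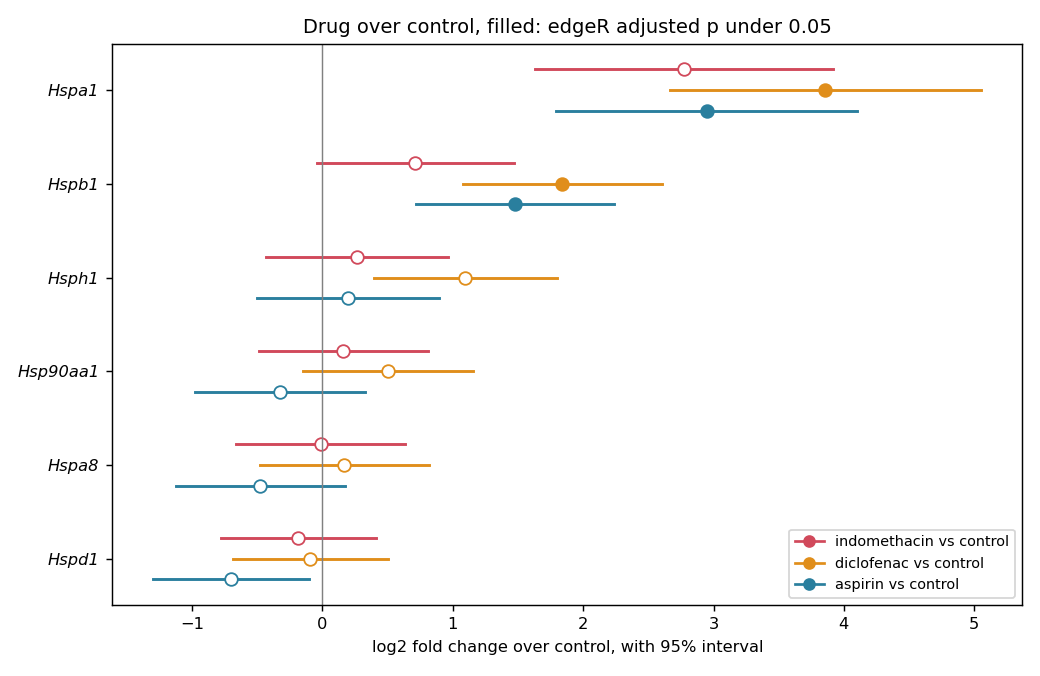
Log2 fold changes over control of the 6 genes with indomethacin, diclofenac and aspirin, as points with 95% intervals from the edgeR model; filled points have an adjusted p under 0.05. Only Hspa1 and Hspb1 with diclofenac and aspirin are filled, and the interval of Hspa1 with indomethacin, from 1.63 to 3.92, also lies above 0.

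Counted together, 2 of 6 genes rose and 0 fell with diclofenac, where 7.87% of 16346 tested genes were called, 4.76% as higher and 3.11% as lower. The count fell without control replicate 1 or diclofenac replicate 1 and rose without diclofenac replicate 2. The number called over all tested genes fell in each of these fits. With aspirin 2 of 6 rose and 0 fell, where 17.8% of tested genes were called, 9.5% as higher and 8.26% as lower. The count fell without control replicate 1 or aspirin replicate 1 and rose without aspirin replicate 2, as did the number called over all tested genes. Without aspirin replicate 2 the log2 fold change of Hspd1 was -1.18. With indomethacin edgeR called 0 of 6, where 0.777% of genes were called, 0.752% as higher and 0.0245% as lower. Of the 6 genes 1 had an unadjusted p under 0.05, as did 1614 of all genes, and DESeq2 called 1. Both libraries lay above both controls for 5 of 6 genes with diclofenac (27% of tested genes), 2 with indomethacin (20.1%) and 2 with aspirin (30.4%). Below both controls lay 0 genes with diclofenac (28.3% of tested genes), 1 with indomethacin (18.2%) and 2 with aspirin (30.2%). The median log2 fold change of the 6 was 0.80 with diclofenac, -0.06 with aspirin and 0.21 with indomethacin, and that of all tested genes was -0.01, 0.00 and -0.02 in the same order. These comparisons share the control libraries.

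The balance of the HSP70 genes within a library needs no scaling between libraries. Per kb of exon, Hspa1 made up 3.41% and 4.6% of the sum of Hspa1 and Hspa8 in the honokiol libraries. It made up 15.7% and 9.55% with diclofenac, 10.8% and 11.2% with aspirin and 5.13% and 10.3% with indomethacin, against 0.689% and 1.61% in control. All 8 libraries with a drug thus lay above both controls, and the honokiol libraries lay between control and indomethacin. Of the sum over all 6 genes per kb, Hspa8 took 51.1% and 57.1% with diclofenac, against 63.4% and 61.1% in control, and Hsp90aa1 kept between 17.4% and 20.9% in all 10 libraries.

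**Figure D4:**
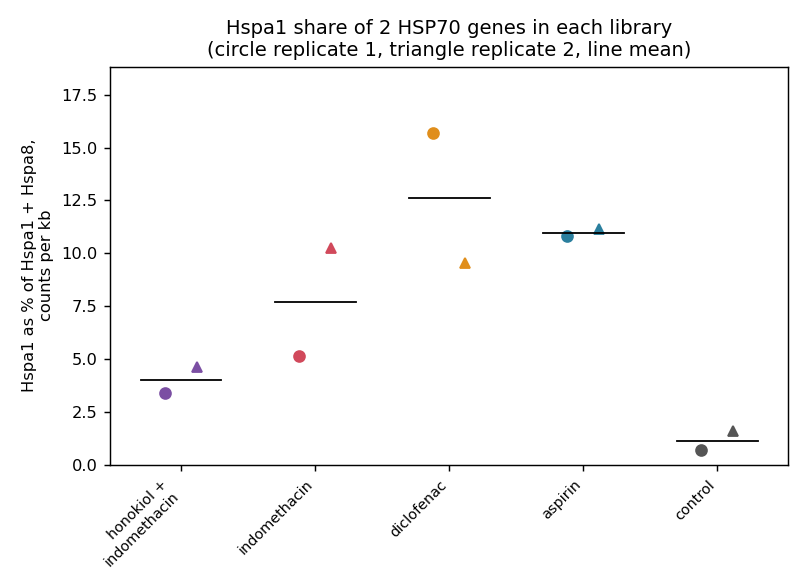
Share of Hspa1 in the sum of Hspa1 and Hspa8, in percent of counts per kb of exon, in each library by group; circles are replicate 1, triangles replicate 2 and lines the mean of the 2. Shares run from 3.41% to 15.7% in the libraries with a drug and are 0.689% and 1.61% in control.

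Honokiol before indomethacin was set against indomethacin alone, with the question whether pretreatment alters the response. Hspa1 had 17.4 and 20.7 TMM-scaled CPM in the honokiol libraries, against 30.6 and 48.3 CPM with indomethacin alone. Hspb1 had 3.63 and 4.83 CPM in the honokiol libraries, against 6.14 and 7.91 CPM. The libraries did not overlap for either gene, yet neither difference passed: the log2 difference was -1.05 ± 0.47 for Hspa1 and -0.74 ± 0.35 for Hspb1 (SE, edgeR adjusted p = 0.534 and 0.542). Their 95% intervals were -2.12 to 0.02 and -1.49 to 0.02. Both honokiol libraries held Y reads, and indomethacin replicate 1, which held them too, had 30.6 CPM of Hspa1. With a term for Y reads the log2 difference was -0.57 for Hspa1 and -0.39 for Hspb1 (edgeR adjusted p = 0.655 and 0.685), so their size depended on that term. Hsp90aa1 had 129 and 110 CPM with honokiol, also below the 176 and 130 CPM with indomethacin alone (log2 difference -0.36 ± 0.30, SE, edgeR adjusted p = 0.788). EdgeR and DESeq2 called 0 of 6 genes, and edgeR called 0.343% of all tested genes, 0.0428% as higher and 0.3% as lower. At an unadjusted p under 0.05 lay 0 of 6 genes and 1552 of all genes. Below both indomethacin libraries lay 3 of 6 genes, where 23.6% of tested genes did, and above both lay 0, where 21.7% did.

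Against control, the honokiol libraries were higher in Hspa1 in both replicates. Hspa1 had 17.4 and 20.7 TMM-scaled CPM, against 3.51 and 8.05 CPM in control, a log2 difference of 1.72 ± 0.49 that did not pass (SE, edgeR adjusted p = 0.833, 95% interval 0.61 to 2.84). DESeq2 called it (adjusted p = 0.0266). Against the control of the same Y-read state the difference was 4.95- and 5.91-fold. The log2 difference was 1.25 without control replicate 1 and 2.45 without control replicate 2. Hspb1 was at 3.63 and 4.83 CPM, against 2.84 and 5.74 CPM, and overlapped with control (log2 difference -0.02 ± 0.35, SE, edgeR adjusted p = 0.99). EdgeR called 0 of 6 genes and 0% of all tested genes, while 1 of 6 and 816 of all genes had an unadjusted p under 0.05, and DESeq2 called 1 of 6. Above both controls lay 1 of 6 genes (18.3% of tested genes) and below both lay 3 of 6 (19.4%), Hsp90aa1, Hspd1 and Hspa8.

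The drugs differ in dose, so comparing them compares the groups as dosed. Among the 3 pairs edgeR and DESeq2 each called 0 of 6 genes. Of all tested genes edgeR called 0.0184% for indomethacin over diclofenac, 0.0184% for indomethacin over aspirin and 0% for diclofenac over aspirin, and 1949, 3283 and 852 genes had an unadjusted p under 0.05 in that order. At an unadjusted p under 0.05 lay 3 of 6 genes between indomethacin and diclofenac, 1 between indomethacin and aspirin and 3 between diclofenac and aspirin. For Hspa1 the log2 difference was -1.08 ± 0.47 for indomethacin over diclofenac, -0.17 ± 0.47 for indomethacin over aspirin and 0.91 ± 0.47 for diclofenac over aspirin (SE, edgeR adjusted p = 0.414, 0.855 and 0.779). The 95% intervals reached from -2.15 to -0.02, from -1.23 to 0.88 and from -0.15 to 1.97, so each interval still holds differences of more than 2-fold. With single libraries left out, the Hspa1 difference ran from -1.52 to -0.47 for indomethacin over diclofenac, from -0.53 to 0.28 for indomethacin over aspirin and from 0.28 to 1.36 for diclofenac over aspirin. The values nearest 0 for both diclofenac pairs, -0.47 and 0.28, were those without diclofenac replicate 1. Below both diclofenac libraries lay both indomethacin libraries for 3 of 6 genes, Hspb1, Hsph1 and Hspa1, where 23.5% of tested genes did and 25.1% lay above. Against aspirin, Hspb1 lay below with indomethacin (26.2% of tested genes) and Hspd1 above (28.3%). Diclofenac and aspirin differed in the same direction for all 6 genes, with a median log2 difference of 0.74 against 0.00 over all tested genes. For Hspb1 and Hspa1 the libraries of these groups overlapped. Several of the 6 genes moved together over the libraries, so their shared direction is not 6 separate observations. For Hsph1, Hsp90aa1, Hspd1 and Hspa8 both diclofenac libraries lay above both aspirin libraries, as they did for 18.9% of tested genes, and 0 of 6 lay below, where 18.3% did. The aspirin library with the lowest values of all 4 genes was replicate 1, which also had the lowest total.

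Each gene was also set beside the features whose pattern over the 10 libraries was most alike, by Pearson's r of log2 CPM. The search covered the 11181 features whose mean log2 CPM was 1 or more. The values are a description and have no p, since the libraries fall into groups. For Hspa1 the most alike was a feature with 2 exons on chromosome 20, from 2699712 to 2701815 (r = 0.9997). It held 4705 and 2184 counts with diclofenac and 94 and 228 in control, while Hspa1 held 4996 and 2272 with diclofenac and 111 and 241 in control. Its counts were 0.847 to 0.961 times those of Hspa1 in every library. For Hspa8 it was a feature on chromosome 11 with 1 exon of 2100 nt, from 13499164 to 13501263 (r = 0.994), at 0.94 to 1.02 times the counts of Hspa8. For Hsp90aa1 it was a feature with 11 exons on chromosome 6, from 135107271 to 135112775 (r = 0.997), at 1.31 to 1.42 times the counts of Hsp90aa1. For Hspb1, Hsph1 and Hspd1 the closest features had r of 0.977, 0.959 and 0.981. The files do not name these features. Among the 6 genes themselves, Hspb1 was most like Hspa1 (r = 0.871), and Hspa8 was most like Hsp90aa1 (r = 0.931) and Hspd1 (r = 0.92). Hspa8 and Hspa1 shared almost no pattern (r = 0.0245).

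Whether reads were shared between near-identical copies was not tested, as no sequence of the files' build was used here. The row of Hspa1 on chromosome 20 (4877324 to 4879779, minus strand) has 1 exon of 2456 nt, the length that RefSeq gives for Hspa1b, 1 of the near-identical inducible HSP70 copies Hspa1a and Hspa1b. RefSeq lists 33 pseudogenes named after Hspa8, 20 after Hspd1 and 16 after Hsp90aa1, and 0 after Hspb1 or Hsph1. The levels of Hspa1, Hspa8, Hspd1 and Hsp90aa1 are uncertain to that extent. Hspb1 (chromosome 12, 23839399 to 23841049, minus strand, 3 exons), Hsph1 (chromosome 12, 6322668 to 6341902, minus strand, 18 exons), Hsp90aa1 (chromosome 6, 135045363 to 135049728, minus strand, 10 exons), Hspd1 (chromosome 9, 61680530 to 61690956, minus strand, 12 exons) and Hspa8 (chromosome 8, 44990014 to 44993179, plus strand, 9 exons) share 0 exon bases with other features, as does Hspa1. No source used here names the genome build of these coordinates.

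**Figure D5:**
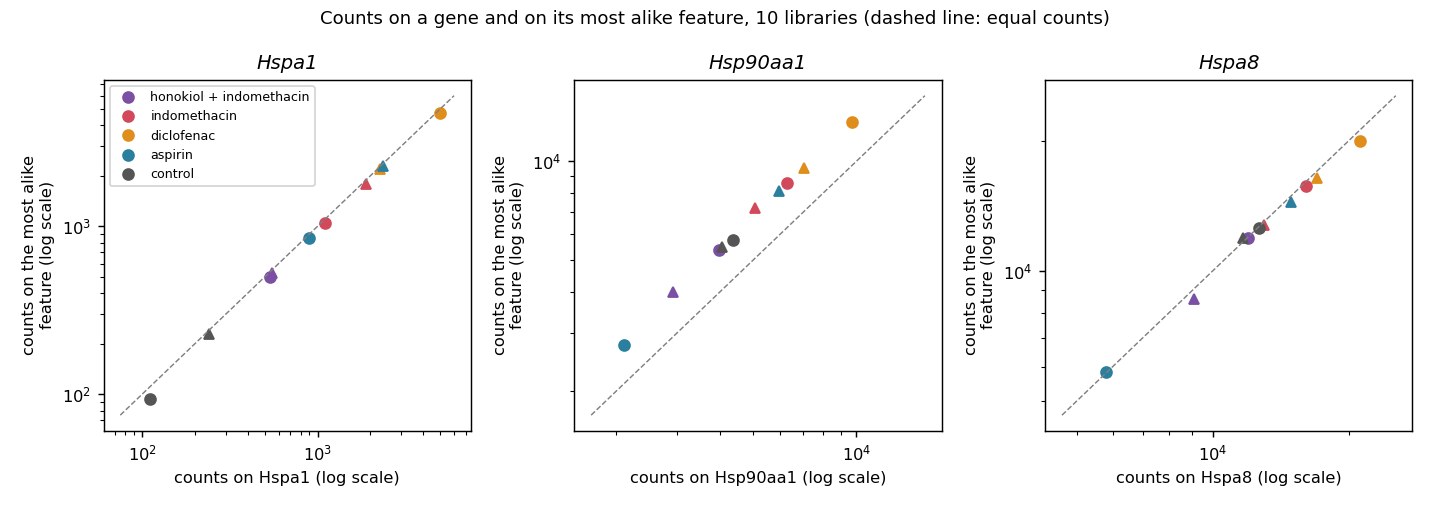
Counts on Hspa1, Hsp90aa1 and Hspa8 (horizontal axis, log scale) against counts on the feature with the most alike pattern (vertical axis, log scale), 1 point per library, with circles for replicate 1, triangles for replicate 2, colours for groups and a dashed line of equal counts. The points run parallel to the line in all 3 panels, at ratios of 0.847 to 0.961, 1.31 to 1.42 and 0.94 to 1.02.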

How the data were processed

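Per the file headers, each deposited table holds raw read counts per gene of 1 library from featureCounts. The submitters' processing notes also name HISAT2 2.1.0, cutadapt 1.16, FastQC 0.11.7, DESeq2, SAMtools and bcl2fastq, in no order. Libraries were stranded and made after removal of ribosomal RNA, per the labels' protocols. No source used here names the genome build, the strand setting or the rule for reads that match several places, so copies of a gene may share reads. Blank lines in the tables were left out, 2 in each table of aspirin and diclofenac and 1 in each of the others. What this difference between the tables reflects was not tested. The main test was edgeR 4.0.16 (R 4.3.3): quasi-likelihood F test, TMM factors, default filterByExpr (minimum count 10, minimum total 15), robust moderation, group as the only term, all 10 libraries in 1 fit with 5 residual degrees of freedom, and Benjamini-Hochberg adjustment over 16346 genes. The standard error is the log2 fold change divided by the square root of F. The scripts were tested on simulated data. The rule for named genes takes all 6 members and, for each, the 2 features most alike over the libraries (prior count 2). Lists of other chaperones and cell type markers could not be applied, as the identifiers are paired with no symbols, so the 6 symbols come from the rule that chose the genes. Members and lists were chosen with earlier results of these data known. Alternatives were RLE factors, 2 other count filters, only the compared groups, DESeq2 1.42.0, a replicate block, a term for Y reads (over 1000 counts) and leaving out single libraries. Library totals as the only scaling were added after seeing the data.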

Additional observations from a re-analysis of the deposited data

How the results depend on the processing

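Over 8 alternatives, not counting single libraries left out, 349 of the log2 fold changes of the 6 genes kept their direction and side of the threshold. Of the rest, 18 changed sign, 15 gained a call and 2 lost one. Counts of called genes were as follows. For indomethacin against control, 1 gene of 6 was called, in place of 0, without a count filter, with the stricter filter, with only the compared groups, by DESeq2, with the replicate block and with the Y-read term, and 0 with RLE factors and library totals. Over all tested genes the fits with 1 call gave 834, 121, 262, 385, 123 and 116 calls in that order, and the reported model 127. Genes tested were 24106 without a filter and by DESeq2, and 16346 in the reported model. For diclofenac against control the count, 2 in the reported model, was 1 with only the compared groups and 3, with Hsph1 added, without a filter, by DESeq2 and with library totals (adjusted p of Hsph1 0.000229, 0.0114 and 0.0478). Over all tested genes these fits gave 527, 2650, 1776 and 908 calls in that order, and the reported model 1286. For aspirin against control it was 1 with the Y-read term, where 683 of 16346 tested genes were called, against 2903 in the reported model. For honokiol plus indomethacin it was 1 against indomethacin without a filter, and 1 against control without a filter and by DESeq2. Over all tested genes these fits gave 699, 153 and 18 calls in that order. The reported model gave 56 against indomethacin and 0 against control. For indomethacin over diclofenac it was 3 without a filter: Hspb1, Hsph1 and Hspa1 (edgeR adjusted p = 0.000821, 0.0272 and 0.00155). That fit called 872 of 24106 tested genes, against 3 of 16346 in the reported model, so calls rose across all genes. In the same fit without a filter, the edgeR adjusted p of Hspa1 for indomethacin over control was 2.81e-21. The cause of these lower values was not tested. Leaving out single libraries changed the number called of the 6 genes with aspirin and with diclofenac against control, and in no other comparison. The number called over all tested genes changed as well. A lone library is then assumed to vary like the other groups.

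Changes of sign were in values that did not pass the threshold. Log2 differences of Hspd1 for honokiol plus indomethacin over indomethacin were 0.011 with RLE factors, 0.005 with the stricter filter, 0.012 with only the compared groups, 0.008 by DESeq2 and 0.117 with library totals, against -0.001 in the reported model. Hspa8 with indomethacin over control was 0.009 without a filter, 0.004 with only the compared groups and 0.052 with library totals. The Y-read term gave 0.055 for Hsph1 (honokiol plus indomethacin over indomethacin), 0.383 for Hspb1 (honokiol plus indomethacin over control) and 0.249 for Hspa1 (indomethacin over aspirin). Library totals moved the median gene by 0.277 with aspirin, 0.127 with diclofenac and 0.201 with honokiol plus indomethacin, each over control. They gave 0.029 for Hspd1 with diclofenac over control, 0.039 for Hspa8 (honokiol plus indomethacin over indomethacin) and -0.093 for Hsph1 (indomethacin over aspirin). For honokiol plus indomethacin over control they gave 0.159 for Hspb1, 0.011 for Hsp90aa1, 0.015 for Hspd1 and 0.091 for Hspa8.

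With single libraries left out, 166 values of the 6 genes kept direction and side, 19 changed sign and the rest only crossed the threshold. Over control, values crossed 0 for Hsp90aa1 (-0.824 to 0.046 with aspirin, -0.044 to 0.362 with indomethacin), Hspa8 with indomethacin (-0.214 to 0.185), Hspd1 with diclofenac (-0.304 to 0.112) and Hsph1 with aspirin (-0.028 to 0.549). The feature beside Hspd1 ran from -0.417 to 0.114 with indomethacin. For honokiol plus indomethacin over control, Hspb1 ran from -0.435 to 0.575 and Hsph1 from -0.133 to 0.443. Over indomethacin alone, Hspd1 ran from -0.079 to 0.063 and Hspa8 from -0.302 to 0.108. For indomethacin over diclofenac the ranges were -0.298 to 0.134 for Hspd1 and -0.412 to 0.017 for Hspa8. For indomethacin over aspirin they were -0.069 to 0.23 for Hsph1 and -0.533 to 0.28 for Hspa1, and for diclofenac over aspirin -0.084 to 0.708 for Hspb1.

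Same-numbered deviations correlated at -0.26 to 0.30 over 10 pairs of groups, and 4 exceeded 0.1. Those 4 were control with indomethacin (0.132), each of these with honokiol plus indomethacin (0.298 and 0.137), and aspirin with diclofenac (0.222). All pairs of aspirin or diclofenac with another group were negative, from -0.263 to -0.104. These values cannot tell whether the replicate numbers mark a shared origin of libraries. With the replicate block Hspa1 with indomethacin was 2.80 (edgeR adjusted p = 0.0386), and no other call on the 6 genes changed.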

Other observations

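Small features inside and beside these genes were looked at after their values were seen. Hspa8 holds 3 single-exon features of 84 to 86 nt in its introns on chromosome 8, starting at 44991645, 44992058 and 44992796; the introns of this gene are known to host small nucleolar RNAs in mammals, and the files do not name the features. The one at 44992796 had 81 and 73 counts with diclofenac and 18 and 67 with aspirin, against 11 and 12 in control. It rose with diclofenac and aspirin (log2 fold change 2.25 ± 0.50 and 1.61 ± 0.50, SE, edgeR adjusted p = 0.0224 and 0.0475), while Hspa8 itself had 0.17 and -0.48. The one at 44991645 had 20 and 38 counts with aspirin, against 9 and 8 in control (1.56 ± 0.47, SE, edgeR adjusted p = 0.0411). The one at 44992058 passed with neither drug (edgeR adjusted p = 0.0796 with diclofenac and 0.145 with aspirin). Background shares of called genes are 7.87% with diclofenac and 17.8% with aspirin. Each call was lost without control replicate 1, at 2.18, 1.55 and 1.64 (edgeR adjusted p = 0.13, 0.18 and 0.14), and with a term for Y reads, at 2.43, 1.79 and 1.73 (0.052, 0.0896 and 0.0868). Both aspirin calls, at 44992796 and 44991645, were also lost with only the compared groups (edgeR adjusted p = 0.0738 and 0.0887) and with the replicate block (0.0675 and 0.0572), and the one at 44991645 by DESeq2 (adjusted p = 0.0951). Without each library in turn, edgeR adjusted p ran from 0.055 to 0.13 for the diclofenac call, from 0.0489 to 0.301 for aspirin at 44992796 and from 0.099 to 0.14 for aspirin at 44991645, and the aspirin value at 44992796 was 0.81 without aspirin replicate 2.

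The next feature beyond the start of Hspd1 lies 1198 bases away on the opposite strand (chromosome 9, 61692154 to 61694599); in RefSeq the gene next to Hspd1 on that side is Hspe1, which encodes the co-chaperonin. It had 6.29 and 12.6 TMM-scaled CPM with aspirin, against 23.7 and 16.5 CPM in control, and fell by 1.08 ± 0.30 as a log2 difference (SE, by edgeR, adjusted p = 0.0314), beside -0.70 for Hspd1. The call was lost with only the compared groups, at -1.05, and with library totals, at -0.81 (edgeR adjusted p = 0.0538 and 0.0729). The value was -0.75 without control replicate 1, -0.67 without aspirin replicate 1 and -0.90 with a term for Y reads (edgeR adjusted p = 0.196, 0.186 and 0.116), and -1.68 without aspirin replicate 2 (edgeR adjusted p = 0.00779).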
